A study of Rattus norvegicus with 8 samples.

Results

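The genes described here encode parts of the centrosome and the primary cilium, and they were measured in H9c2 cells, a myoblast line derived from embryonic rat heart. The set held 47 of the 15037 distinct gene symbols named on the array. Of these, 45 were matched by symbol alone (23 Cep, 16 Ift and 6 Bbs genes), and Sclt1 and Fam161a were added by name. The set was proposed after the log2 intensities of all 8 arrays had been compared, so its members were in effect chosen by measured values, Sclt1 and Fam161a by name. Its differences and counts are therefore descriptions, and for Sclt1 and Fam161a no test is given. Each symbol had 1 probe set, and all 47 genes were measured on every array.

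Centrioles organise the centrosome, the main microtubule-organising centre of the animal cell. In cells that are not dividing, the mother centriole can dock at the membrane through its distal appendages and grow a primary cilium. Cargo moves along the cilium on intraflagellar transport (IFT) trains, which are built from IFT complexes A and B, and the BBSome, a coat-like complex of BBS proteins, carries membrane proteins in and out. Cycling myoblasts carry primary cilia, and differentiating muscle cells dismantle the centrosome.

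All cells were cultured as H9c2 myoblasts at passage 6 to 12 in differentiation medium with 1% serum. They were seeded at 35000 cells/cm2, held in a pouch preheated to 27 °C, moved to a 37 °C incubator on day 7 and fixed on day 10. The ground untreated group (2 arrays, replicates 1 and 3) and the ground nanoceria group (3 arrays) stayed on Earth. The space untreated group (1 array) and the space nanoceria group (2 arrays) flew to the International Space Station. Nanoceria, cerium oxide nanoparticles studied as antioxidants, were given at 100 µg/ml. The ground cultures repeated the temperature record of the flight afterwards, so regime and culture run cannot be told apart. The cells are 1 clonal line, and the labels do not say whether replicates were separate cultures, so p-values measure only the spread between these samples.

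From each sample 30 ng of total RNA, with 500 pg of HeLa RNA as a control, was amplified and hybridised to rat Clariom S Pico arrays, with 23188 probe sets each and median intensities of 107 to 117. Values are log2 intensities, and differences are log2 differences ± standard error (SE). No detection measure came with them, so low intensities may be background. Of the muscle markers all 12 were measured, with a list mean of 6.98 to 8.54 by array, against 4.84 to 4.96 for 5 macrophage markers, 4.80 to 5.32 for 5 endothelial and 5.66 to 5.92 for 5 multiciliated-cell markers. The list mean was 10.40 to 10.97 for 6 fibroblast, 6.27 to 6.80 for 4 epithelial and 5.77 to 6.50 for 5 neural and glial markers. Ground untreated replicate 3 stood apart in its mitotic genes, with a mean of 6.72 over 13 of them against 9.00 to 9.56 on the other arrays.

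Lower levels in nanoceria-treated cells on ground were the main pattern of the set. Ift74, Cep83, Sclt1, Ift80, Cep295 and Cep57 were 2.12-fold to 4.66-fold lower there than in untreated ground cells, and other members, such as Ift46, Bbs1 and Bbs10, differed by 0.097, 0.13 and -0.020 on the log2 scale. In 14 of the 45 genes matched by symbol, and in Sclt1, all 3 ground nanoceria arrays lay below the other 5 arrays, where 6.86% of all probe sets did so. The opposite, with all 3 above, occurred in 0 of 45 genes against 6.79% of probe sets. The lowest array of a gene was a ground nanoceria array in 12, 8 and 13 of the 45 genes for replicates 1, 2 and 3, where 16.6%, 8.01% and 12% of all probe sets were lowest on these arrays.

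**Figure D1:**
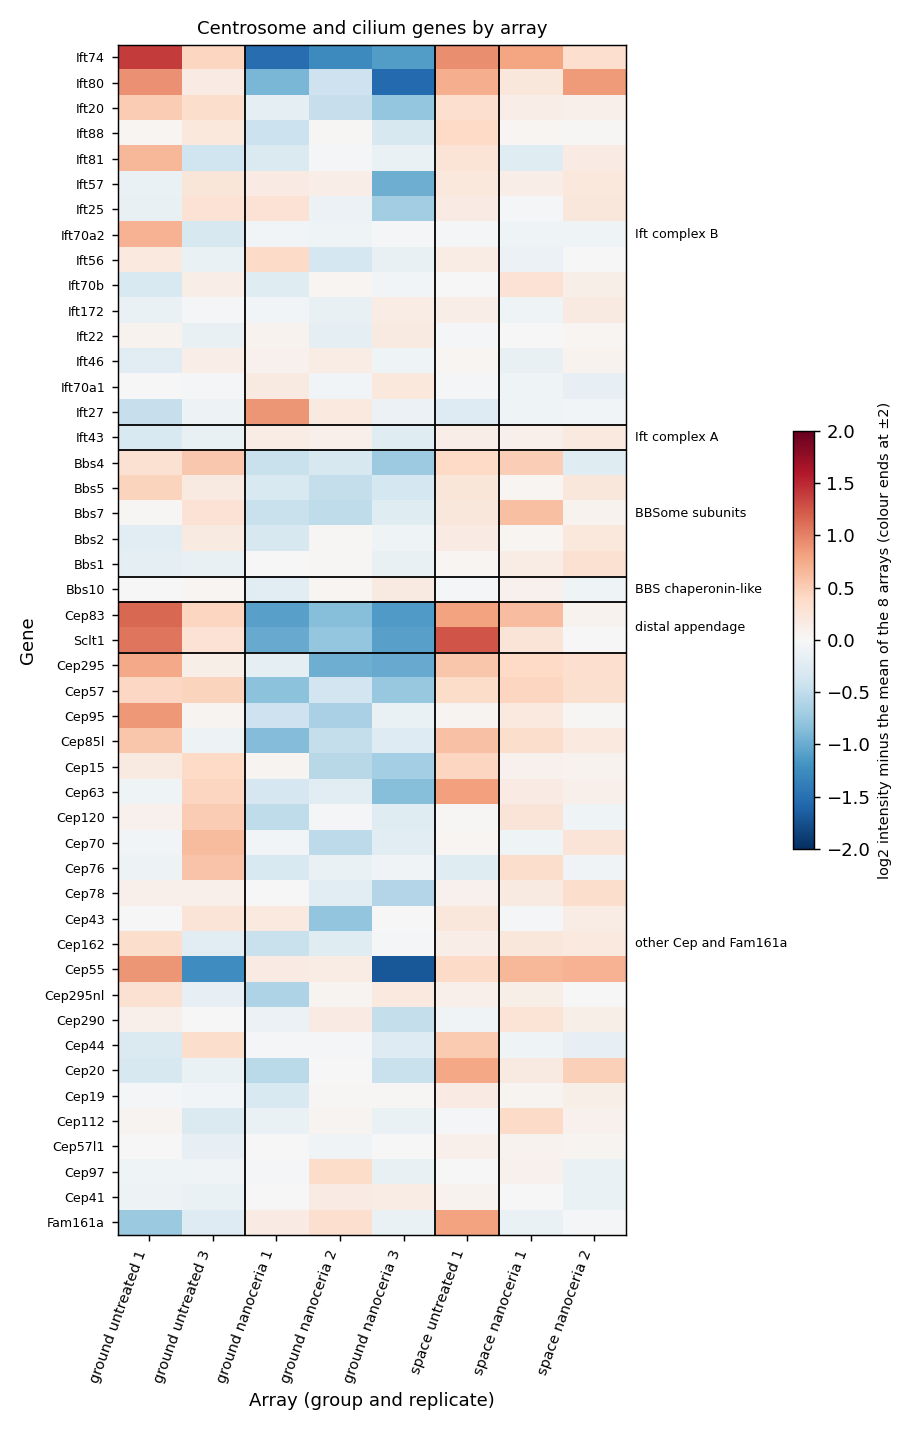
Heat map of the 47 genes (rows, grouped by role and ordered within a role by the nanoceria difference on ground) over the 8 arrays (columns). Colour is log2 intensity minus the gene's mean over the 8 arrays. Ift74, Cep83, Sclt1 and Ift80 are blue in all 3 ground nanoceria columns and red or pale in the other 5.

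Complex B of intraflagellar transport carries cargo towards the tip of the cilium, and 15 of its genes were measured. Ift74 encodes a coiled-coil core subunit that pairs with IFT81 to bind tubulin. Its log2 intensities were 8.73 and 7.76 in untreated ground cells, 5.81, 6.05 and 6.21 in nanoceria-treated ground cells, 8.25 in the untreated space sample and 8.11 and 7.66 in the treated space samples. The 3 ground nanoceria arrays lay below every other array. The ground means were 6.02 ± 0.20 (SD, n = 3) treated and 8.24 ± 0.68 (SD, n = 2) untreated. The difference on ground was -2.22 ± 0.31, a 4.66-fold lower level, and nanoceria in space differed by -0.37 ± 0.41.

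Ift80, which encodes a peripheral complex B subunit, followed the same pattern with more spread. Its values were 8.09 and 7.34 in untreated and 6.26, 6.76 and 5.62 in treated cells on ground, and 7.90 in untreated and 7.40 and 8.04 in treated cells in space. The difference on ground was -1.50 ± 0.39, and no ground nanoceria array reached the lowest of the other arrays. Ift20, whose product also travels between Golgi and cilium, had 9.80 and 9.65 in untreated, and 9.11, 8.85 and 8.53 in treated cells on ground. In space it had 9.64 untreated and 9.43 and 9.40 treated. The ground difference was -0.90 ± 0.20, again with no overlap.

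In the other 12 complex B genes at least 1 ground nanoceria array lay above the lowest of the other arrays. Ift81, the partner of Ift74 and chosen here after its values were seen, had 6.73 and 5.67 in untreated and 5.77, 6.03 and 5.93 in treated cells on ground, so the groups overlapped. Its difference was -0.29 ± 0.31, and turned from -0.82 without untreated replicate 3 to 0.24 without untreated replicate 1. Ift88, another core subunit, differed by -0.36 ± 0.18 on ground and by -0.37 ± 0.25 in space. Ift46, also of the core, had 10.21 and 10.56 in untreated and 10.51, 10.58 and 10.34 in treated cells on ground, a difference of 0.097 ± 0.18, which was -0.080 without untreated replicate 1. Ift27, a small GTPase subunit, had the highest difference of the 45 genes matched by symbol, at 0.60 ± 0.29. Treated ground replicates 1 and 2, at 10.28 and 9.60, lay above all untreated and space arrays, and replicate 3 was at 9.29. The difference was 0.32 without treated ground replicate 1. Ift70a1, Ift70a2 and Ift70b are close copies of one another that probes may not fully separate, and they differed by 0.14, -0.25 and -0.0038 on ground. Ift70a2 lay between -0.75 and 0.26, and Ift70b between -0.22 and 0.21, when untreated replicate 3 or 1 was left out.

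Of the 15 complex B genes, 10 were lower and 5 higher with nanoceria on ground, where 44.5% of all probe sets were lower. Their median was -0.25. An unadjusted p below 0.05 held for 3 of them, all lower, and 12 did not pass it, where 6.57% of all probe sets passed as lower and 4.42% as higher. The complex A gene Ift43, whose complex serves return transport, differed by 0.23 ± 0.18 on ground, with 9.48 and 9.63 in untreated and 9.93, 9.88 and 9.54 in treated cells.

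Among 5 BBSome subunit genes, Bbs4, Bbs5 and Bbs7 were lower with nanoceria on ground without overlap, while Bbs2 differed by -0.11, or 0.079 without untreated replicate 3, and Bbs1 by 0.13. Bbs7, another subunit of the core, differed by -0.55 ± 0.21. Bbs4, which recruits the centriolar satellite protein PCM1, had 6.46 and 6.70 in untreated and 5.71, 5.83 and 5.44 in treated cells on ground, and 6.56 in untreated and 6.65 and 5.91 in treated cells in space. Treated space replicate 2 lay nearest to the ground nanoceria arrays. The ground difference was -0.92 ± 0.25.

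Bbs5, which encodes a subunit that binds phosphoinositides, had 8.78 and 8.51 in untreated and 8.03, 7.86 and 7.98 in treated cells on ground, against 8.57 in untreated and 8.37 and 8.56 in treated cells in space. It differed by -0.68 ± 0.17 on ground and -0.10 ± 0.22 in space. Bbs1, which contacts the small GTPase ARL6, had 8.51 and 8.56 in untreated and 8.71, 8.73 and 8.56 in treated cells on ground, a difference of 0.13 ± 0.15. Bbs10 encodes a chaperonin-like protein that helps the BBSome assemble. It had 7.59 and 7.64 in untreated and 7.37, 7.64 and 7.78 in treated cells on ground, with a difference of -0.020 ± 0.18 that was 0.021 once array medians were made equal.

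The set held 2 distal appendage genes, Cep83 by its symbol and Sclt1 as an addition by name. Cep83, whose product anchors the distal appendages that dock the mother centriole to the membrane, had 8.74 and 8.02 in untreated and 6.50, 6.74 and 6.45 in treated cells on ground. In space it had 8.40 untreated and 8.21 and 7.66 treated. The ground nanoceria arrays lay below all others, and the difference was -1.81 ± 0.27 on ground and -0.46 ± 0.36 in space.

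Sclt1, a distal appendage gene whose product needs CEP83 for its place there, had 7.43 and 6.66 in untreated and 5.36, 5.59 and 5.28 in treated cells on ground. In space it had 7.63 in untreated and 6.63 and 6.39 in treated cells. Treated cells were thus lower in both regimes by value, by -1.64 ± 0.25 on ground and -1.12 ± 0.34 in space, where the untreated side was 1 array.

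Of the 23 remaining genes, 18 were lower with nanoceria on ground, where 44.5% of all probe sets were lower. Cep57, which encodes a pericentriolar protein that keeps centrioles engaged, had tight groups. Its values were 8.10 and 8.13 in untreated and 6.86, 7.30 and 6.93 in treated cells on ground, and 8.06 in untreated and 8.11 and 8.01 in treated cells in space. The untreated ground and the space arrays lay close together, and the ground nanoceria arrays lay below them, with a difference of -1.09 ± 0.18 on ground. Cep57l1, a paralog of Cep57, differed by 0.061 ± 0.15, or -0.028 without untreated replicate 3.

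Cep295, needed to turn new centrioles into centrosomes, had 7.80 and 7.16 in untreated and 6.84, 6.07 and 6.03 in treated cells on ground, and 7.59 in untreated and 7.44 and 7.38 in treated cells in space. It differed by -1.16 ± 0.30 on ground. Cep63, which recruits duplication factors to the mother centriole, had 6.80 and 7.32 in untreated and 6.55, 6.66 and 6.04 in treated cells on ground. It had 7.72 in the untreated and 7.06 and 6.99 in the treated space samples. Its nanoceria difference was similar in both regimes, at -0.64 ± 0.24 on ground and -0.69 ± 0.33 in space. Without ground untreated replicate 3 the ground value was -0.39.

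Genes of this group whose 3 ground nanoceria arrays lay below the other 5 also included Cep15, Cep78, Cep85l and Cep95, at -0.68, -0.36, -0.76 and -0.85 on ground. Without ground untreated replicate 1, Cep85l was at -0.43 and Cep95 at -0.45, and without ground nanoceria replicate 3, Cep78 was at -0.21. Cep120, a centriole elongation gene, differed by -0.56 ± 0.22 but overlapped with the space arrays, and was at -0.35 without untreated replicate 3.

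**Figure D2:**
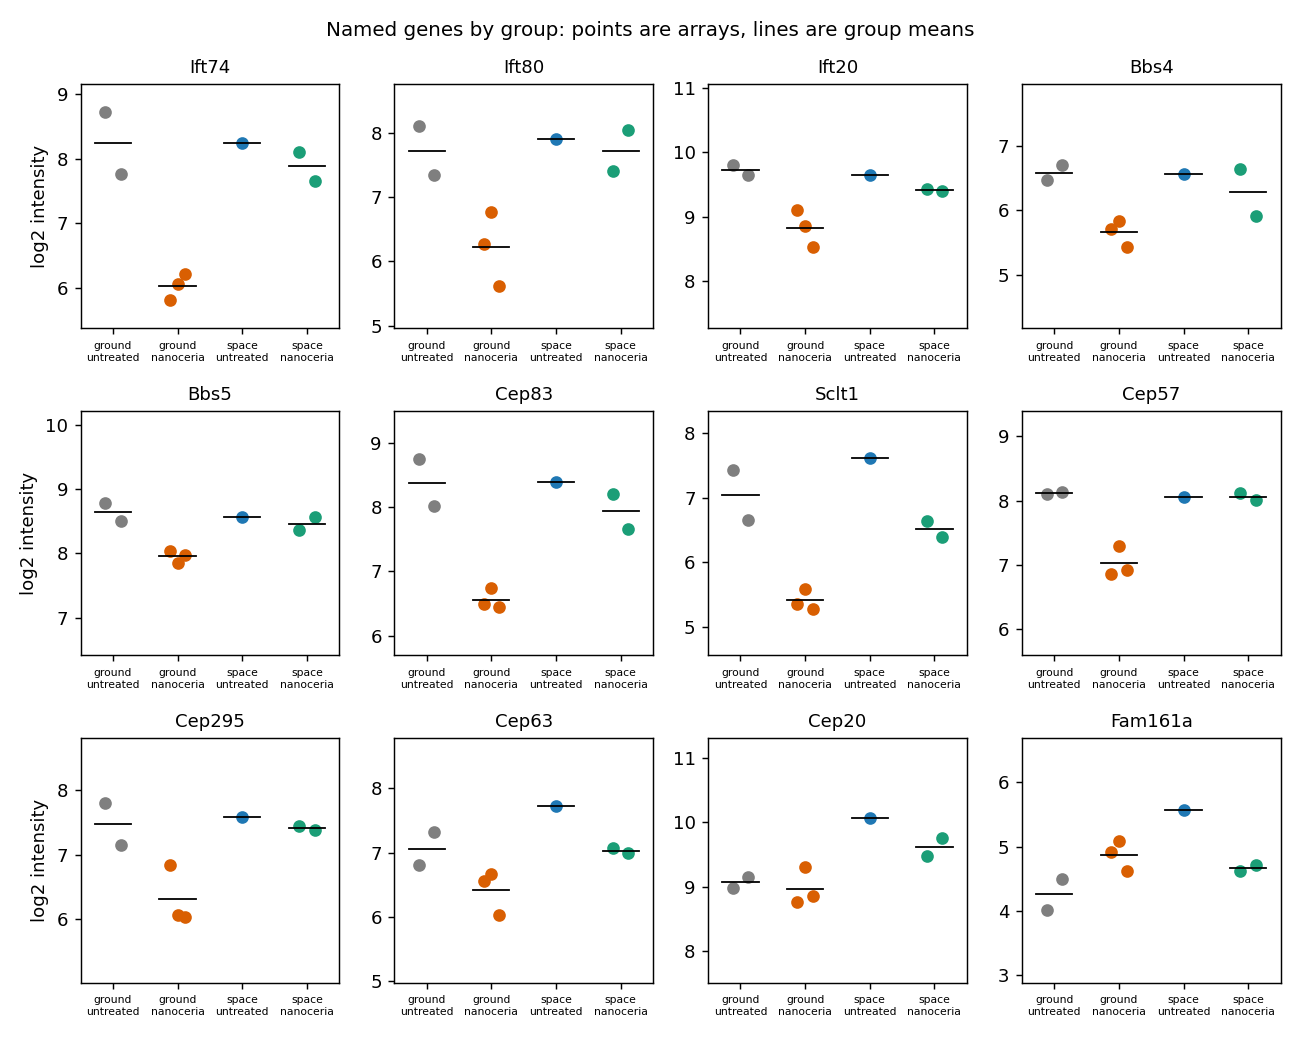
Log2 intensity of 12 named genes (y axis, all panels to the same scale) in the 4 groups (x axis). Points are arrays and horizontal lines are group means. The ground nanoceria points lie below all others in the panels from Ift74 to Cep63, but not in those of Cep20 and Fam161a.

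Nanoceria was compared with no treatment on ground over the whole set and over all probe sets. Of the 45 genes matched by symbol, 14 (31.1%) were lower at an unadjusted p below 0.05, where 6.57% of all 23188 probe sets and 6.56% of the 15037 named genes were. Higher genes numbered 0 of 45, against 4.42% of probe sets. The median difference was -0.28, against 0.038 over all probe sets, and 34 of 45 genes were lower, against 44.5% of probe sets. With limma and Benjamini-Hochberg adjustment over all probe sets 0 genes passed (0% of probe sets), and the smallest adjusted p among the 45 was 0.128. Without ground untreated replicate 3, 13 of 45 genes were lower at an unadjusted p below 0.05, against 8.73% of probe sets, and the median was -0.23. All 3 ground nanoceria arrays then lay below the remaining arrays in 17 genes, against 9.36% of probe sets. Without ground untreated replicate 1, 167 probe sets passed the adjusted threshold, and 0 of the 45 genes did, with Ift74 at an adjusted p of 0.0519. Leaving out 1 array at a time turned the sign of the ground difference in 19 of the 45 genes.

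The genes with the largest ground differences were also compared without untreated replicate 3, the array that stood apart in its mitotic genes. Ift74 was then at -2.70 ± 0.26, Cep83 at -2.17 ± 0.27, Sclt1 at -2.03 ± 0.22, Ift80 at -1.88 ± 0.45, Cep295 at -1.49 ± 0.34 and Cep57 at -1.07 ± 0.23. Ift20 was at -0.98 ± 0.26, Bbs5 at -0.82 ± 0.20, Bbs4 at -0.80 ± 0.32 and Bbs7 at -0.42 ± 0.26. Ift74, Cep83, Sclt1, Ift80, Cep295, Ift20 and Bbs5 thus lay further from untreated cells by value, and Cep57, Bbs4 and Bbs7 less far. Without untreated replicate 1 instead, Ift74 was at -1.73, Cep83 at -1.45, Ift80 at -1.13 and Cep295 at -0.84. Ift20 was at -0.82, Bbs5 at -0.55, Cep57 at -1.10, Bbs4 at -1.04 and Bbs7 at -0.68. For Sclt1 the treated ground mean of 5.41 then stood against 6.66, where the untreated mean with both arrays was 7.05. Ift74, Cep83, Sclt1, Ift80, Cep295, Ift20 and Bbs5 thus lay less far from untreated cells than with both arrays, and Cep57, Bbs4 and Bbs7 further. In either case the untreated side is 1 array, taken to vary like the other groups.

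Muscle and mitotic genes differed in the same comparison. The 12 muscle markers were all higher with nanoceria on ground, and so were the 13 mitotic genes, where 44.5% of all probe sets were lower. At an unadjusted p below 0.05, 6 muscle and 3 mitotic genes were higher, against 4.42% of probe sets. Without untreated replicate 3, which leaves 1 untreated array, 10 muscle markers were higher and 2 lower, and their median went from 0.79 to 0.37. The mitotic genes then numbered 8 higher and 5 lower, and their median went from 1.32 to 0.21. The muscle list mean was 7.85 and 6.98 on the untreated and 8.31, 8.16 and 8.54 on the treated ground arrays. The mitotic list mean was 9.47 and 6.72 on the untreated and 9.47, 9.56 and 9.00 on the treated ground arrays, so untreated replicate 1 lay within the treated range. Their part in the result was not tested. In bulk RNA, fewer cells with a transcript and less of it per cell cannot be told apart.

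Over both regimes, with 1 nanoceria effect fitted for flight and ground, 12 of 45 genes were lower at an unadjusted p below 0.05, where 5.86% of probe sets were. They were Ift74, Cep83, Ift80, Cep295, Cep57, Bbs4, Cep63, Ift20, Cep85l, Cep15, Bbs5 and Ift88. Higher genes numbered 0, against 3.77%. The median was -0.18 against 0.033 over all probe sets. With limma 0 probe sets passed the adjusted threshold (0%), and the smallest adjusted p of the 45 genes was 0.358 for Cep83 (-1.33 ± 0.30).

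Within space, where 2 treated arrays met 1 untreated array, no gene matched by symbol passed even an unadjusted p of 0.05. Lower genes at an unadjusted p below 0.05 numbered 0 of 45 (0.763% of probe sets) and higher ones 0 (0.707%), and the median was -0.067. Across the 45 genes, the nanoceria differences on ground and in space, which share no array, had a rank correlation of 0.334, against 0.242 across the 15037 named genes. This describes genes measured on the same arrays, which are not independent.

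**Figure D3:**
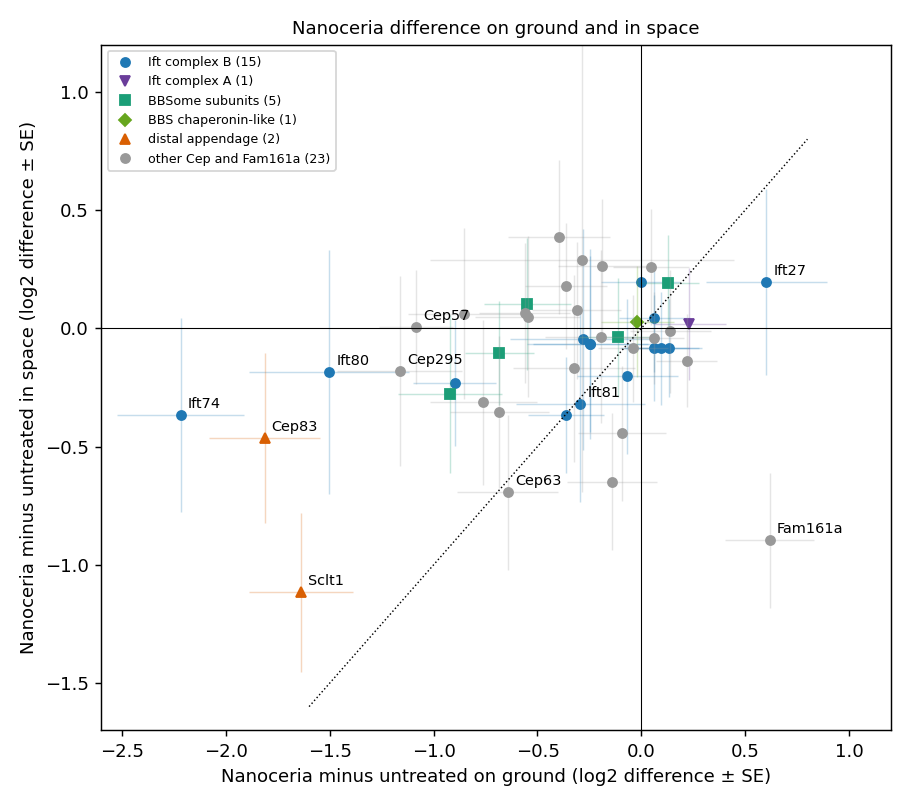
Nanoceria difference on ground (x axis) against that in space (y axis) for the 47 genes, as log2 differences with bars of 1 SE, coloured by role with the number of genes in brackets. The dotted line marks equal differences. Ift74, at -2.22 and -0.37, and Cep57, at -1.09 and 0.0038, lie far above the line, while Cep63 lies on it.

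The interaction of regime and treatment tests whether the nanoceria difference itself differed between space and ground. It was positive, with a less negative difference in space, at an unadjusted p below 0.05 for 3 of 45 genes, against 1.44% of probe sets. These were Ift74 at 1.85 ± 0.51, Cep83 at 1.35 ± 0.45 and Cep57 at 1.09 ± 0.30. It was negative for 0 of 45, against 0.906%. None of them passed adjustment with limma, where 0 probe sets (0%) did and each of the 3 had an adjusted p of 1. The median interaction over the 45 genes was 0.18. It was 0.22 without ground untreated replicate 3 and 0.12 without replicate 1, and 0.18 or 0.19 without space nanoceria replicate 1 or 2. Leaving out ground nanoceria replicate 1, 2 or 3 gave 5, 4 or 3 positive genes, against 1.29%, 1.61% or 1.8% of probe sets.

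Fam161a, which encodes a microtubule-binding protein of the centriole and the photoreceptor connecting cilium, had differences of opposite sign on ground and in space. It had 4.01 and 4.50 in untreated and 4.92, 5.09 and 4.62 in treated cells on ground, against 5.56 in untreated and 4.62 and 4.72 in treated cells in space. Treated cells were higher on ground, by 0.62 ± 0.21, and lower in space, by -0.90 ± 0.29. The space value rests on the single untreated array, the highest of all 8, and the ground value was 0.37 without untreated replicate 1.

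Space was compared with ground over both treatments. Of the 45 genes, 9 were higher in space at an unadjusted p below 0.05, where 5.3% of probe sets were, and 0 were lower, against 4.26%. They were Ift74, Ift80, Cep83, Cep20, Cep295, Cep85l, Cep57, Cep63 and Bbs7. The median was 0.22 against -0.044 over all probe sets, with 38 of 45 genes higher. Lower genes numbered 7 of 45, against 58.7% of probe sets. With limma 0 probe sets (0%) passed the adjusted threshold, and the smallest adjusted p among the 45 was 0.334. The count was 3 without space nanoceria replicate 1 and 6 without replicate 2, against 3.11% and 3.22% of probe sets.

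Cep20 was higher in space without regard to treatment. This gene, whose product acts at the centriole and its satellites, had 8.98 and 9.15 in untreated and 8.75, 9.30 and 8.85 in treated cells on ground. It had 10.06 in untreated and 9.48 and 9.76 in treated cells in space. The space arrays all lay above the ground arrays, by 0.77 ± 0.17 over both treatments, and the nanoceria difference on ground was -0.094 ± 0.21, or 0.021 with array weights.

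In treated cells, space against ground uses the same 3 ground nanoceria arrays as the nanoceria comparison on ground, so their signs are tied. Of the 45 genes, 13 were higher in space at an unadjusted p below 0.05 (5.02% of probe sets) and 0 were lower (3.39%). Ift74 differed by 1.86 ± 0.31, Ift80 by 1.50 ± 0.39, Cep83 by 1.37 ± 0.27, Cep295 by 1.10 ± 0.30 and Cep57 by 1.03 ± 0.18. The median was 0.30 against -0.051, and 0 probe sets (0%) passed with limma, with a smallest adjusted p of 0.287 among the 45. Without space nanoceria replicate 1 or 2 only 1 treated space array is left, and the median was 0.33 or 0.35. In untreated cells 1 of 45 genes, Cep20 at 1.00 ± 0.28, was higher (1.63%) and 0 were lower (1.51%), with a median of 0.089. When ground untreated replicate 3 was left out, 3 genes were higher (2.27% of probe sets), 2 were lower (3.95%) and the median was 0.032. With replicate 1 of that group left out the median was 0.13, with 1 array on each side. Without ground nanoceria replicate 3, 2 genes were higher, against 1.83% of probe sets.

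**Figure D4:**
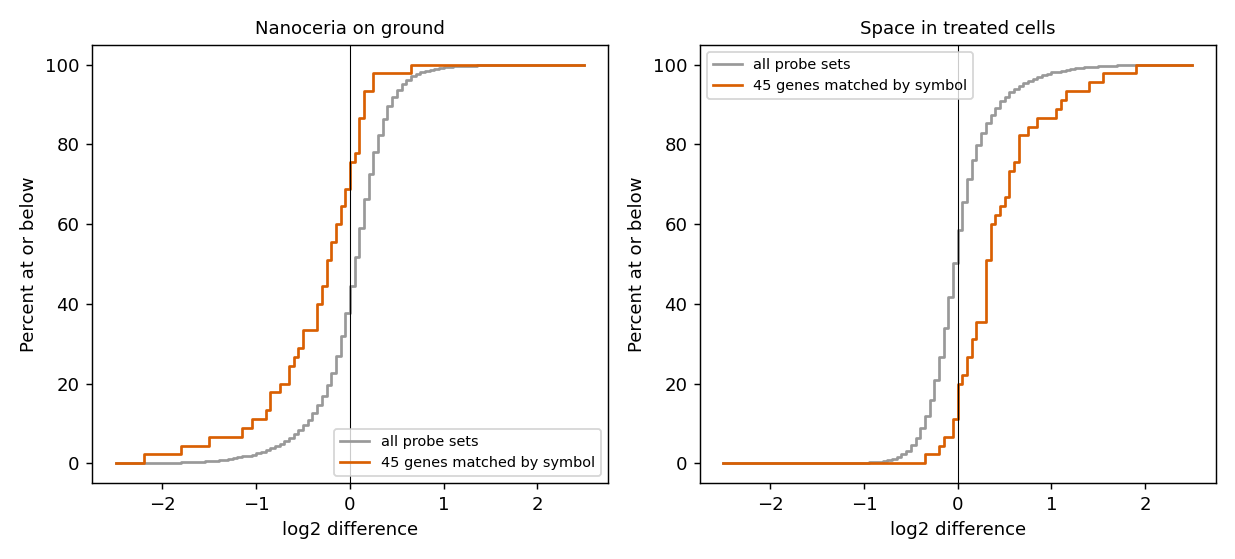
Cumulative percent (y axis) of the 45 genes matched by symbol and of all 23188 probe sets at or below each log2 difference (x axis), for nanoceria on ground (left) and space in treated cells (right). The line of the 45 genes lies left of the grey line on ground (median -0.28 against 0.038) and right of it in treated cells (median 0.30 against -0.051).

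Cep55, singled out after its values were seen, did not separate the groups. Its product acts in abscission at the end of cell division rather than in the cilium. It had 7.95 and 5.83 in untreated and 7.23, 7.22 and 5.37 in treated cells on ground, and 7.46 to 7.76 in space. The low arrays were replicate 3 of both ground groups. The mitotic list mean was the lowest of all arrays in untreated replicate 3 (6.72) and the next lowest in treated replicate 3 (9.00).

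Genes of the same structures that carry other symbols were read from lists, and their counts stand beside 6.57% of all probe sets lower and 4.42% higher at an unadjusted p below 0.05, and 6.86% with the ground nanoceria arrays below the other 5. Of 15 measured IFT, BBSome and motor genes, 5 were lower and 0 higher with nanoceria on ground at an unadjusted p below 0.05, and 4 had all 3 ground nanoceria arrays below the other 5. Lztfl1, a regulator of BBSome traffic, had 6.91 and 6.79 in untreated and 5.03, 5.59 and 5.45 in treated cells on ground, a difference of -1.49 ± 0.20. The complex A gene Wdr35 differed by -0.63 ± 0.18.

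Of 28 other centriole and centrosome genes, 7 were lower and 3 higher on ground at that threshold. Their median was -0.11, with -0.14 without untreated replicate 3 and -0.0010 without untreated replicate 1. The latter left 14 lower and 14 higher by value. Pcm1, the scaffold of centriolar satellites, had 8.89 and 8.57 in untreated and 7.24, 7.56 and 7.19 in treated cells on ground, and 8.59 to 8.96 in space, a ground difference of -1.40 ± 0.19. Tubgcp5, of the gamma-tubulin ring complex, differed by -0.89 ± 0.21.

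Of 20 measured genes on a list of transition zone, appendage and other ciliary genes, 3 were lower and 0 higher on ground at that threshold. Their median was -0.030. The distal appendage genes on the list, Fbf1, Ankrd26 and Ttbk2, were not measured. Without untreated replicate 3 the median was -0.16, and without untreated replicate 1 it was -0.024, with 1 untreated array left in each case. Ahi1 differed by -1.31 ± 0.18 and Tmem67, of the same zone, by -0.37 ± 0.16. All 9 measured genes of hedgehog signalling, a pathway that vertebrate cells run through the cilium, were higher on ground by value. Over all probe sets 44.5% were lower by value, and 0 of the 9 genes passed an unadjusted p of 0.05. Without untreated replicate 3, 6 of 9 were higher by value. Sufu, an inhibitor of the pathway, differed by 0.46 ± 0.21 and Gli2, its transcription factor, by 0.54 ± 0.31, or by 0.74 and -0.038 without that array. Of 5 regulators of the RFX and FOXJ1 families, which drive ciliary genes, 0 passed, with Rfx7 at -0.33 ± 0.14 and Rfx1 at 0.24 ± 0.14. Their median was -0.16, with -0.24 without untreated replicate 3 and -0.034 without untreated replicate 1. With limma 0 genes of these lists passed adjustment in this comparison.

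What the 14 genes with the lowest ground nanoceria arrays shared beyond their symbols was examined in RefSeq. Their median gene span was 35.7 kb, against 34.0 kb for the other 31 and 17.8 kb for all named genes. Longer genes tended to be lower with nanoceria on ground, with a rank correlation of -0.275 across the 45 genes and -0.204 across the 15037. Higher promoter GC content went with lower values across the 39 genes with a promoter entry (-0.436), but not across 12435 named genes (-0.0038). The median promoter GC was 60.5% over the 12 of the 14 genes with an entry and 56.3% over 27 of the other 31. These correlations across genes describe points that share the same 8 arrays.

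Promoters are shown for 3 genes with large negative ground differences that have an entry (Sclt1, Cep83 and Cep57) and for Ift81, whose partner Ift74 has none. Each is the 100 bases before the annotated start, 5′ to 3′ on the strand of the gene, from RefSeq on GRCr8. Capitals mark GTTGCC on either strand, a half-site of the X-box that RFX factors bind. Cep295 differed more on ground than Cep57 (-1.16 against -1.09) and also has an entry, which is not shown. It lacks the half-site in the 250 bases before the start.
Sclt1, chr2:126691773-126691872, minus strand: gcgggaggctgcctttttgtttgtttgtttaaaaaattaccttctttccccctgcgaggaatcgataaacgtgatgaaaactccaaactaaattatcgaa
Cep83, chr7:31167267-31167366, plus strand: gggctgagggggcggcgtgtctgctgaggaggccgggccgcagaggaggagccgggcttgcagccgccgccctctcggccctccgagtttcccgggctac
Cep57, chr8:18970845-18970944, minus strand: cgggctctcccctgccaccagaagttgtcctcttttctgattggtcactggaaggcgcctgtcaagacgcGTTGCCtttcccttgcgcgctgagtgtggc
Ift81, chr12:39618522-39618621, plus strand: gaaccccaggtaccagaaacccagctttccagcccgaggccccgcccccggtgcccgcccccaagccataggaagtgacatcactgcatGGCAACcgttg

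The stretches differed in composition, with 39.0% GC for Sclt1, 60.0% for Cep57, 65.0% for Ift81 and 76.0% for Cep83. In the 250 bases before the start, the half-site occurred in 7 of 41 promoters of the set (17.1%) and in 9.9% of all 27457 promoters. The 7 were those of Bbs5, Cep19, Cep57, Fam161a, Ift27, Ift81 and Ift88. It was present in 2 of 13 promoters of genes whose ground nanoceria arrays were lowest and in 5 of the other 28.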

How the data were processed

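Expression was measured on 8 rat Clariom S Pico arrays. The deposited values are linear intensities per probe set, summarised by the authors with RMA per the submitters' processing notes, against Rnor_6.0 per the labels' protocols. For its software version and settings, nothing is given in the sources used here. Tests had been planned for log2 values, so log2 of the deposited intensity was taken, with no pseudocount. Groups came from the labels. limma 3.58.1 in R 4.3.3 was fitted to all 23188 probe sets, with regime and treatment as additive terms or with 4 group means, and p-values were adjusted by Benjamini-Hochberg over all probe sets. The fits were tested on simulated data. Members and lists were chosen with earlier results of these data known. Named genes were the 6 members with the smallest p in each of 4 comparisons, Sclt1, Fam161a, and in each role the brightest and the 2 with the smallest p for nanoceria over both regimes, with the 2 smallest per list. Other genes named were chosen after their values were seen. All 47 members matched RefSeq by gene identifier, and 41 had a promoter entry. Alternatives were other scalings, array weights, a dim-probe filter, another variance model, a replicate block and leaving out each array.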

Additional observations from a re-analysis of the deposited data

How the results depend on the processing

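In the 4 comparisons of nanoceria (over both regimes, on ground) and of space (over both treatments, in treated cells), each under 14 alternatives, the 56 medians over the 45 genes kept their sign, 48 of them within 1 SD of arrays (0.050). Some alternatives could not move a difference. The other variance model left every difference as it was, and an array outside a comparison of group means could not change it. The counts of kept signs and directions include such fixed values. For space in untreated cells the median was -0.0083 with the replicate block. The 6 genes of smallest p in each of the 4 comparisons, 24 pairs in all, kept their direction in 336 alternative values, with 17 moved by more than 1 SD of their replicates. They were picked for small p in these same data, so a kept direction is no independent check. Of 68 pairs of a named gene and a comparison, 8 changed sign under an alternative that keeps all arrays. These pairs belong to Ift46, Bbs10, Fam161a and Cep20, with main values of at most 0.094 in size, such as Ift46 over both regimes (0.032, and -0.013 with cyclic loess) and Fam161a over both regimes (0.077, and -0.28 with array weights). With array weights the median was -0.11 for nanoceria over both regimes and -0.19 on ground. For space over both treatments 15 genes were then higher at an unadjusted p below 0.05, against 7.12% of probe sets. In that comparison 4 probe sets passed the adjusted threshold. Leaving out 1 array at a time gave medians of -0.28 to -0.17 for nanoceria over both regimes, 0.18 to 0.30 for space over both treatments, -0.31 to -0.21 for nanoceria on ground and 0.30 to 0.36 for space in treated cells. The genes past an unadjusted p of 0.05 then numbered 3 to 13 for space over both treatments and 7 to 15 in treated cells, lowest without space nanoceria replicate 1 and, in treated cells, equally without replicate 2. Probe sets past the adjusted threshold numbered 0 to 167 for nanoceria on ground, the highest without ground untreated replicate 1, and 0 to 1 for space over both treatments. With the replicate number as a block, 3 genes were higher at that unadjusted threshold for space over both treatments (3.44% of probe sets). In treated cells 7 were higher (3.17%). For nanoceria, 10 genes were lower on ground (5.05%) and 8 over both regimes (5.24%), and 6 had a positive interaction (0.897%). The labels do not say whether replicate numbers pair the arrays, so the main fits did not use them as pairs. On ground, replicate 1 minus 3 of the untreated and of the nanoceria arrays had a correlation of -0.352 over all probe sets. This sets a single difference against another, so it cannot decide the question. With 1 array left out, 3.11% to 6.79% of all probe sets were higher at an unadjusted p below 0.05 for space over both treatments. In treated cells 2.57% to 6.08% were. The causes of these shifts were not tested. Each symbol had 1 probe set, so the choice of probe set changed nothing. With 1 to 3 arrays a group and no detection measure, the number of arrays limits the precision.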
